A study of Mus musculus with 10 samples.

Results

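The genes described here are the 51 that encode the DNA replication machinery in mouse P14 CD8 T cells taken from tumours: the origin recognition complex, licensing factors, the MCM helicase and its partners, the replicative polymerases, the sliding clamp with its loader, single-strand binding proteins, Okazaki fragment enzymes, fork protection factors and replication-coupled histone chaperones. They were chosen by function and sorted into 14 complexes or roles, out of 54408 genes with summed transcripts, of which 13081 passed the filter on low counts and were tested. All 51 were among the genes tested. The P14 transgene encodes a T cell receptor specific for the peptide gp33, which B16-gp33 mouse melanoma cells present. All T cells were P14 cells on the C57BL/6 background with both Nfat5 alleles floxed. WT cells had no CD4-Cre, and NFAT5 KO cells carried CD4-Cre, a recombinase driven by the Cd4 promoter that acts from the stage of T cell development at which that promoter is active, in all cells that descend from it. After 48 h of activation in culture, 5000000 cells were transferred to mice with subcutaneous tumours, and on day 7 the CD8 T cells inside the tumours were sorted. There were 5 WT and 5 NFAT5 KO libraries, and the comparison asks which genes differ in these cells when Nfat5 is targeted.

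A cell replicates its genome by loading MCM2-7 rings on origins in G1 and switching them on in S phase. The origin recognition complex, Cdc6 and Cdt1 load the rings, geminin blocks reloading, and the DDK kinase with Cdc45 and GINS turns each ring into a moving helicase. Polymerase alpha-primase lays primers, polymerases epsilon and delta extend them with PCNA, and histone chaperones rebuild chromatin behind the fork. Most of these genes are transcribed with the cell cycle, many of them through E2F factors at the passage from G1 to S, and CD8 T cells divide repeatedly after antigen recognition.

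The replication genes were lower in NFAT5 KO than in WT libraries almost throughout. By the edgeR quasi-likelihood test with Benjamini-Hochberg adjustment over all genes at a threshold of 0.05, 41 of the 51 genes were lower and 0 were higher, while 5.63% of all genes tested were lower and 3.38% were higher. No member was higher at an unadjusted p under 0.05 either (0 of 51), against 11.1% of all genes tested, and the DESeq2 Wald test and limma-voom also called 0 higher. At least 2-fold lower were 31 members, against 3.07% of all genes tested. In 41 members every NFAT5 KO library lay below every WT library, against 6.41% of all genes tested. The log2 fold changes (NFAT5 KO minus WT) ran from -2.55 for Clspn to 0.06 for Orc3, with a median of -1.16, and 50 of the 51 were negative, while the median over all genes tested was 0.02. Summed over the 51 genes, the level averaged 6677 ± 835 CPM over the WT and 3243.6 ± 533 CPM over the NFAT5 KO libraries (SD, n = 5 each). CPM are counts scaled to a common library total. The 10 members that did not pass were Orc2, Orc3, Orc4, Orc5, Gins3, Gins4, Dbf4, Pold3, Pole and Rpa3. At an unadjusted edgeR p under 0.05, 48 members were lower, all but Orc3, Orc4 and Gins4, against 1588 of all 13081 genes tested. By edgeR the count of lower members was 0 with macrophage marker level as a covariate, where 7 of all 13081 genes tested were called lower. At an unadjusted p under 0.05, 35 members and 5.01% of all genes tested were lower in that fit. The count of lower members was also 0 among the 5 libraries of label prefix 678 alone, where 0 of all 13747 genes tested were called lower. At an unadjusted p under 0.05, 41 members and 6.20% of those genes were lower.

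**Figure D1:**
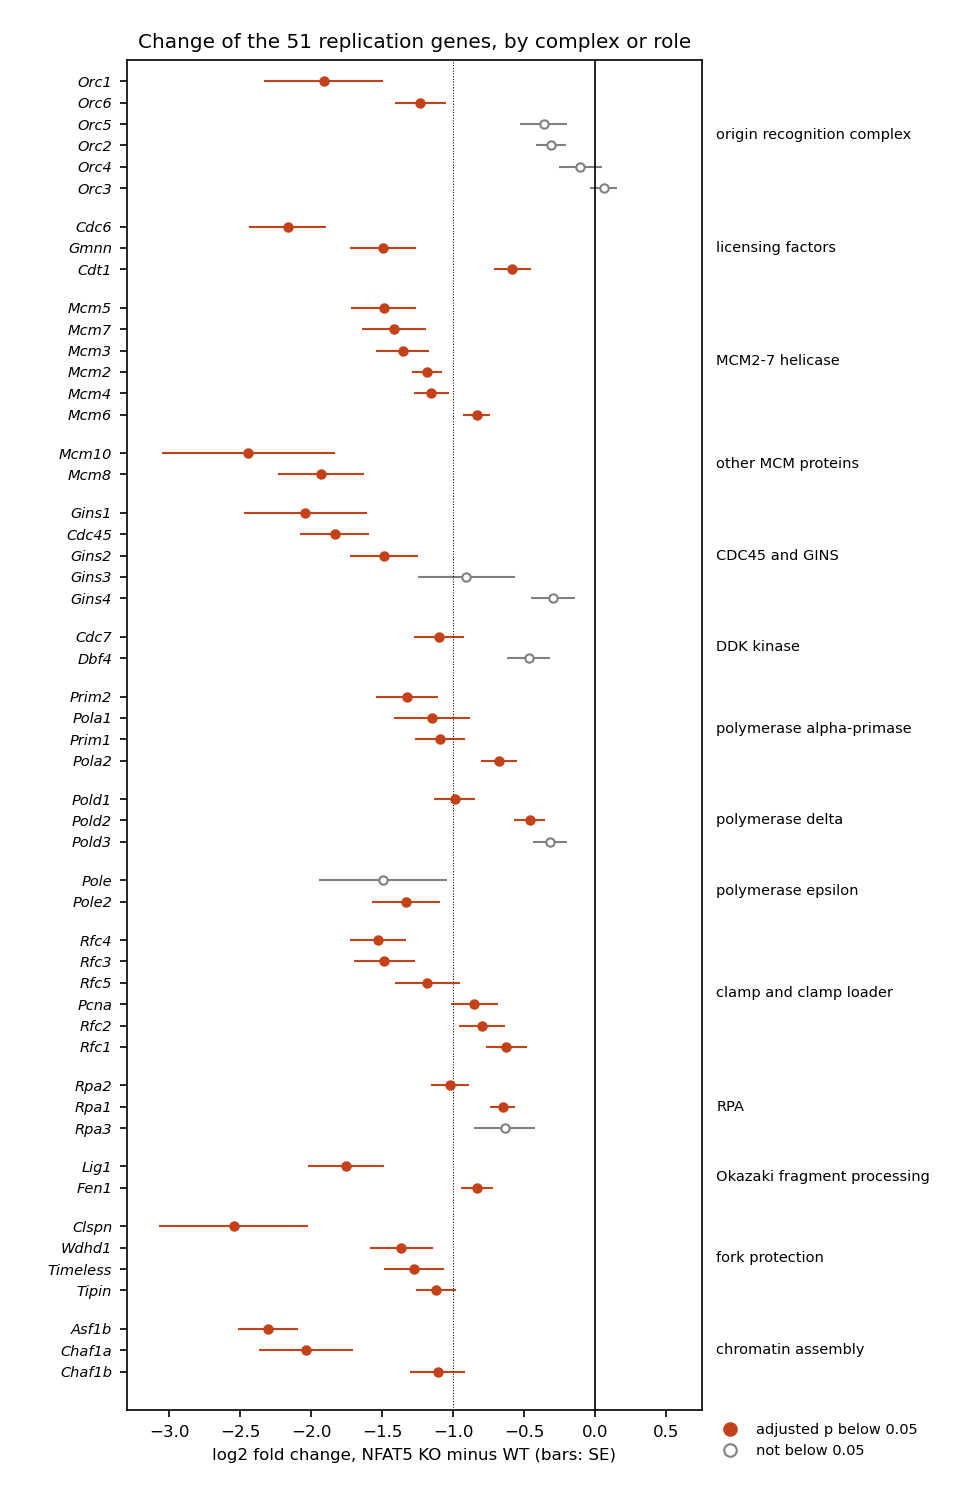
Log2 fold change (x axis, NFAT5 KO minus WT) of each of the 51 replication genes (y axis), in blocks by complex or role. Points are estimates from the fit, bars are SE, filled points have an adjusted p below 0.05, and the dotted line marks a halving. The 41 filled points all lie left of 0, and 4 of the 10 open points belong to the origin recognition complex.

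The libraries held 22444310 to 32001285 estimated counts. The lowest count of any member in any library was 7, and 46 of the 51 had at least 100 counts in every library. Nfat5 itself averaged 15.4 ± 3.81 CPM over WT and 15 ± 6.58 CPM over NFAT5 KO libraries, with a log2 fold change of -0.04 ± 0.27 (SE) and an edgeR adjusted p of 0.957. This sum takes in reads from all its exons, which of them are floxed is not given in the sources used here, and it therefore checks nothing about the genotype labels. Whether the libraries come from different mice is not stated in the labels, and p-values then measure only the spread between these libraries, which may be technical. All 8 markers of CD8 T cells were present, with a summed level of 7380 to 8340 CPM across WT and 8070 to 8520 CPM across NFAT5 KO libraries. Of these 8, Trac, Cd2 and Cd5 were called higher in NFAT5 KO libraries by edgeR. Of 4 CD4 T cell markers, Cd4 itself was at 0.0472 CPM over WT and 0.633 CPM over NFAT5 KO libraries, and the list summed to 5.97 to 17 CPM across WT and 23.9 to 41.5 CPM across NFAT5 KO libraries. Cd40lg was called higher, at 4.799 ± 2.26 against 18.7 ± 3.71 CPM (SD, n = 5 each; log2 fold change 1.96 ± 0.30 (SE), edgeR adjusted p = 0.00175). Macrophage and monocyte markers were present at a low level, 70.5 to 140 CPM summed over 12 genes across WT and 37 to 76.5 CPM across NFAT5 KO libraries. In bulk RNA, fewer cells in cycle and less RNA of these genes per cell cannot be told apart.

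Promoter sequences are shown because these genes moved together and because E2F letters are a feature that the choice of genes did not use. RefSeq promoter windows (GRCm38.p6, 250 bases before to 50 after the start) were matched for 42 of the 51 members. The E2F letters searched were TTTCCCGC, TTTCGCGC, TTTGCCGC and TTTGGCGC on both strands, and matches on opposite strands may overlap. Of the 42 members, 17 (40.5%) had at least 1 match, against 4.904% of the 9176 tested genes with a window and 2.61% of all 27025 genes in the table. At least 2 matches were found in 5 members (11.9%), against 0.229% of tested genes. The 160 bases before the start are printed for 5 members, with the E2F letters in capitals, chosen after their matches were seen. These are Mcm5 (chr8:75109349-75109508, plus strand) and Mcm6 (chr1:128359706-128359865, minus strand) for the helicase with several matches, Cdc6 (chr11:98907991-98908150, plus strand) and Orc1 (chr4:108579294-108579453, plus strand) for strongly lower loading factors, and Orc3 (chr4:34614943-34615102, minus strand) for a gene that holds a match but was not lower.
Mcm5: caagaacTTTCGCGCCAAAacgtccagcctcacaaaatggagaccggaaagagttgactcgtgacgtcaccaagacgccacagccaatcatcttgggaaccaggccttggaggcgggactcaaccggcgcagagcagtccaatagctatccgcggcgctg
Mcm6: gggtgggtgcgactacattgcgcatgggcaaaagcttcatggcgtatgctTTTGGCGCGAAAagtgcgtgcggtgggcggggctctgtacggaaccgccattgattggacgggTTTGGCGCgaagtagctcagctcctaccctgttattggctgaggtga
Cdc6: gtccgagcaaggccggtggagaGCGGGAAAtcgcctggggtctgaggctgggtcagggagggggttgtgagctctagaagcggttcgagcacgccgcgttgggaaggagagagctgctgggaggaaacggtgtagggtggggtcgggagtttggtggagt
Orc1: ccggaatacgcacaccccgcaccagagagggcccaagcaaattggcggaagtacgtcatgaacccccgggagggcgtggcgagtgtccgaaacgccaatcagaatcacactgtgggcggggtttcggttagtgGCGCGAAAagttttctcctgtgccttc
Orc3: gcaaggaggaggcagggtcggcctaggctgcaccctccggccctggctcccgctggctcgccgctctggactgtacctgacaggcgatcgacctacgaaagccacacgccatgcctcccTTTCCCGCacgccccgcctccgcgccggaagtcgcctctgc
In Mcm5 and in the first capital run of Mcm6, matches on opposite strands overlap. The start used here is that of RefSeq. By the GENCODE gene coordinates given below, the Cdc6 stretch lies wholly inside the gene, and those of Orc1 and Orc3 reach into theirs. A match is a description of the letters, not a measured binding site.

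Lower members were found with and without E2F letters. Of members with a match, 14 of 17 were lower, with a median log2 fold change of -1.36, and of those without, 20 of 25 were lower, with a median of -1.095. Put the other way, 14 of 34 lower members held a match (41.2%), and so did 3 of the 8 members that were not called (37.5%). The 34 genes of a mitosis list, which act after S phase, differed in their letters: 3 of 29 with a window held E2F letters (10.3%), while 22 (75.9%) held the CHR letters TTTGAA or TTCGAA, an element known from late cell cycle promoters. Of the replication genes 23.8% held CHR letters, and of tested genes 16.9%. The box CCAAT, bound by NF-Y, was in the windows of 59.5% of members and 43.2% of tested genes.

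**Figure D2:**
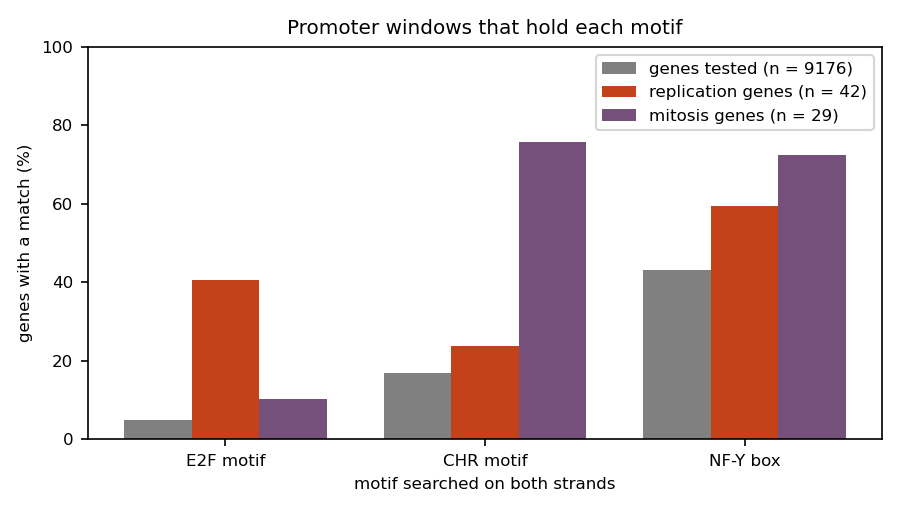
Share of genes (y axis, %) whose RefSeq promoter window holds each motif (x axis), for the tested genes, the replication genes and the mitosis genes. The NF-Y box is CCAAT; E2F letters were in 40.5% of replication genes and 10.3% of mitosis genes, and CHR letters in 23.8% and 75.9%.

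In what follows, 5 CPM values for a genotype are always given in the order of libraries 678_2, 678_4, 679_3, 679_4 and 679_5 for WT and 678_3, 678_5, 678_6, 679_2 and 679_6 for NFAT5 KO. The leading number, whose meaning the labels do not give, is the label prefix. Gene coordinates are from GENCODE M21 on GRCm38.

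The origin recognition complex (ORC) changed unequally across its subunits. It marks origins for MCM loading, and 2 of its 6 subunits were lower while 4 did not pass, with a median log2 fold change of -0.34. Orc6 (ENSMUSG00000031697, chr8:85299632-85308278, plus strand), the smallest subunit, stood at 49.5, 33.9, 36.02, 52.7 and 36.7 CPM in the WT libraries and at 19.7, 13.2, 22.5, 17.2 and 16.3 CPM in the NFAT5 KO libraries. All NFAT5 KO libraries were below all WT libraries, and the gene was 2.35-fold lower (log2 fold change -1.23 ± 0.18 (SE), edgeR adjusted p = 0.00129). Orc1 (ENSMUSG00000028587, chr4:108579423-108614833, plus strand), the ATPase subunit whose protein is degraded and remade with each cycle in mammalian cells, stood at 14.8, 14.4, 15.4, 30.1 and 16.1 CPM in the WT libraries and at 11.5, 2.67, 3.59, 3.904 and 2.49 CPM in the NFAT5 KO libraries. WT library 679_4 and NFAT5 KO library 678_3 stood high in their groups, and the groups did not overlap (log2 fold change -1.91 ± 0.42 (SE), edgeR adjusted p = 0.0133). Orc3 (ENSMUSG00000040044, chr4:34570796-34614944, minus strand), a core subunit whose promoter holds E2F letters, stood at 99.9, 100.2, 101, 104 and 100.0 CPM in the WT libraries and at 95.2, 90.7, 119, 99.2 and 122 CPM in the NFAT5 KO libraries. The WT libraries lay close together inside the range of the NFAT5 KO libraries, and no difference was called (log2 fold change 0.06 ± 0.10 (SE), edgeR adjusted p = 0.778). The other core subunits had log2 fold changes of -0.31 ± 0.11 (SE) for Orc2, -0.11 ± 0.15 for Orc4 and -0.36 ± 0.17 for Orc5, with edgeR adjusted p-values of 0.0891, 0.727 and 0.208. Their unadjusted edgeR p-values were 0.0116, 0.495 and 0.0471, and the DESeq2 Wald test called Orc2 lower. The ratio of Orc1 to Orc2 within a library was lower in NFAT5 KO by a log2 difference of -1.77 (exact permutation p = 0.0159, adjusted over the 17 pairs 0.0385), and that of Orc6 to Orc2 by -0.92 (exact permutation p = 0.00794, adjusted over the 17 pairs 0.0385). These are 2 of 17 ratios tested over all arrangements of the genotype labels, two-sided, where the smallest possible p is 0.00794. Each ratio that passed, here and below, was lost in most fits that left out 1 library.

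All 3 licensing factors were lower, but not equally. Cdc6 (ENSMUSG00000017499, chr11:98907801-98923940, plus strand), the ATPase that joins ORC to load MCM rings, stood at 55.03, 40.02, 52.2, 65.1 and 50.3 CPM in the WT libraries and at 17.8, 6.89, 15.96, 7.09 and 10.9 CPM in the NFAT5 KO libraries. All NFAT5 KO libraries lay far below the WT range, with 678_5 and 679_2 lowest, a 4.49-fold difference (log2 fold change -2.17 ± 0.27 (SE), edgeR adjusted p = 0.000558). Cdt1 (ENSMUSG00000006585, chr8:122568015-122573554, plus strand), which brings the MCM ring to the origin, stood at 70.2, 68.4, 58.2, 63.6 and 61.2 CPM in the WT libraries and at 39.4, 33.3, 42.8, 53.4 and 45.5 CPM in the NFAT5 KO libraries. The groups came close to each other without overlap, and Cdt1 had the smallest change of the 3 (log2 fold change -0.59 ± 0.13 (SE), edgeR adjusted p = 0.0128). Geminin (Gmnn), the inhibitor that binds Cdt1, had a log2 fold change of -1.49 ± 0.23 (SE, edgeR adjusted p = 0.00182). The ratio of Cdt1 to Gmnn was thus higher in NFAT5 KO libraries, by 0.87 (exact permutation p = 0.0159, adjusted over the 17 pairs 0.0385). Cdc6 and Orc1 were not distinguished, with a difference in ratio of -0.17 (exact permutation p = 0.627, adjusted over the 17 pairs 0.659).

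The 6 subunits of the MCM2-7 helicase, the ring that unwinds DNA at the fork, were all lower, with log2 fold changes from -1.49 to -0.84 and a median of -1.27. Their summed level fell from 3072 ± 409 to 1365 ± 245 CPM (SD, n = 5 each). Mcm2 (ENSMUSG00000002870, chr6:88883474-88898780, minus strand) stood at 473, 352, 441, 442 and 448 CPM in the WT libraries and at 224, 166, 170.5, 199.6 and 188 CPM in the NFAT5 KO libraries. WT library 678_4 was the lowest of its group, still above each NFAT5 KO library (log2 fold change -1.19 ± 0.10 (SE), edgeR adjusted p = 0.000117). Mcm3 (ENSMUSG00000041859, chr1:20802968-20820312, minus strand) stood at 564, 353, 476, 529.6 and 489 CPM in the WT libraries and at 229, 108, 188, 188 and 227 CPM in the NFAT5 KO libraries. Again WT 678_4 was lowest in WT and NFAT5 KO 678_5 lowest in its group, without overlap (log2 fold change -1.36 ± 0.19 (SE), edgeR adjusted p = 0.000968). Mcm4 (ENSMUSG00000022673, chr16:15623897-15637400, minus strand) stood at 421, 310.4, 429, 407 and 414 CPM in the WT libraries and at 194, 136, 160.4, 199.9 and 198 CPM in the NFAT5 KO libraries. WT 678_4 was again the lowest of WT, and the groups did not overlap (log2 fold change -1.16 ± 0.12 (SE), edgeR adjusted p = 0.000258).

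For Mcm5 (ENSMUSG00000005410, chr8:75109569-75128439, plus strand), whose promoter holds overlapping E2F letters, the libraries stood at 603, 377, 497, 607 and 477 CPM in the WT libraries and at 281, 98.97, 157, 180.4 and 195 CPM in the NFAT5 KO libraries. NFAT5 KO 678_3 was the highest of its group and 678_5 the lowest, and no library crossed into the other group's range (log2 fold change -1.49 ± 0.23 (SE), edgeR adjusted p = 0.0017). Mcm6 (ENSMUSG00000026355, chr1:128331590-128359664, minus strand), another subunit with E2F letters in its promoter, stood at 839.8, 721, 830.5, 1016 and 879.6 CPM in the WT libraries and at 538, 424, 469, 469.6 and 499.5 CPM in the NFAT5 KO libraries. It had the smallest change of the 6 and a narrow spread in NFAT5 KO libraries, again without overlap (log2 fold change -0.84 ± 0.10 (SE), edgeR adjusted p = 0.000353). Mcm7 (ENSMUSG00000029730, chr5:138164583-138172422, minus strand) stood at 456, 297, 370.5, 458 and 380.4 CPM in the WT libraries and at 214, 72.8, 162, 135 and 150.3 CPM in the NFAT5 KO libraries. NFAT5 KO 678_5 lay well under the other 4 libraries of its group, and all lay below WT (log2 fold change -1.42 ± 0.23 (SE), edgeR adjusted p = 0.00215). Per length, Mcm6 had the highest level in WT, and the others lay nearer to each other: TPM, which is scaled by transcript length, was 169.9 ± 20.7 for Mcm2, 182 ± 32.04 for Mcm3, 148 ± 16.4 for Mcm4, 211 ± 35.8 for Mcm5, 362 ± 41.6 for Mcm6 and 183 ± 30.8 for Mcm7 (SD, n = 5). The ratio of Mcm3 to Mcm7, neighbours in the ring, differed between genotypes by 0.09 (exact permutation p = 0.389, adjusted over the 17 pairs 0.441).

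**Figure D3:**
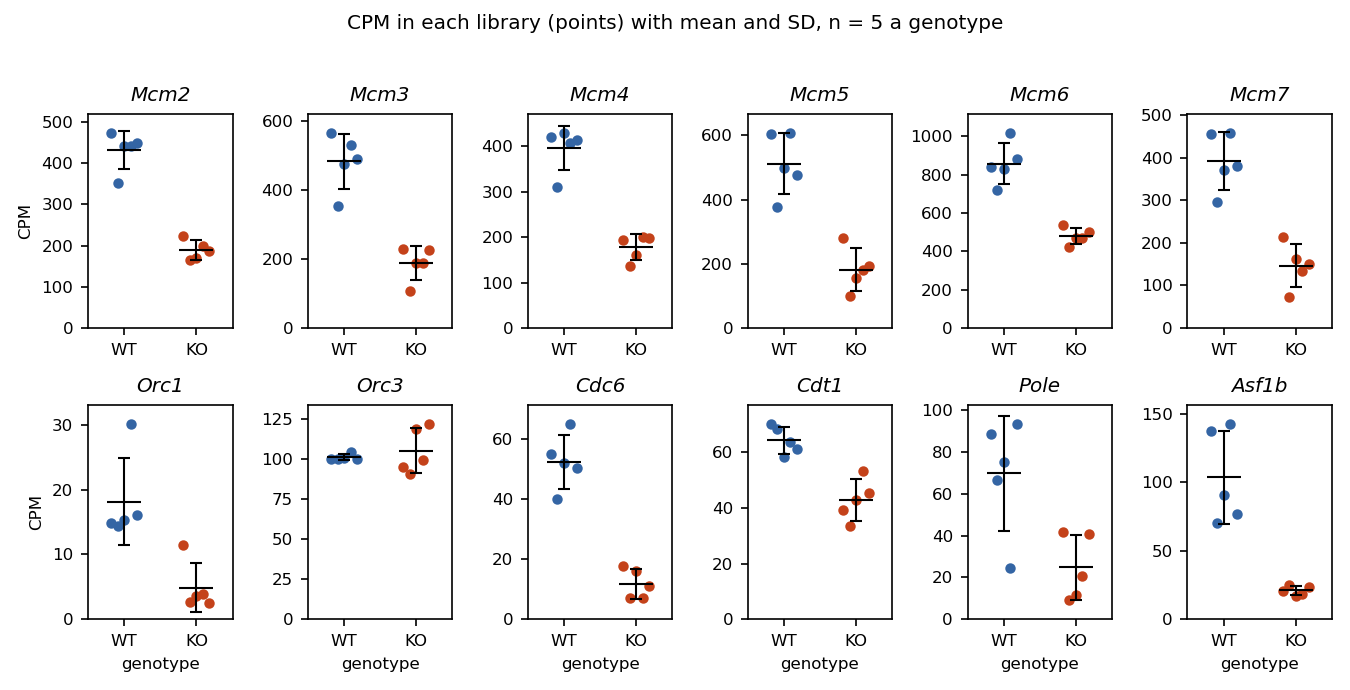
CPM (y axis) of 12 replication genes in each WT and NFAT5 KO library (points), with the mean and SD (n = 5 a genotype). The 6 MCM2-7 genes, Orc1, Cdc6, Cdt1 and Asf1b do not overlap between genotypes, while Orc3 does, and Pole overlaps through WT library 679_4 at 24.6 CPM.

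The MCM relatives outside the ring were both lower. Mcm10 (ENSMUSG00000026669, chr2:4989714-5012791, minus strand), which takes part in turning the helicase on, stood at 48.3, 28.03, 40.4, 44 and 29.9 CPM in the WT libraries and at 19.96, 2.12, 2.29, 1.54 and 9.16 CPM in the NFAT5 KO libraries. The NFAT5 KO group was spread widely, with 678_3 close to the WT range and 3 libraries near 2 CPM (log2 fold change -2.44 ± 0.61 (SE), edgeR adjusted p = 0.0266). Without WT library 678_2, NFAT5 KO library 678_6 or WT library 679_3 this call did not pass, with a highest edgeR adjusted p of 0.0648 among all fits that leave out 1 library. Mcm8 (ENSMUSG00000027353, chr2:132816141-132844197, plus strand), which acts in homologous recombination with Mcm9, stood at 15.6, 13.2, 17.04, 20.1 and 13.5 CPM in the WT libraries and at 7.58, 2.600, 3.09, 2.91 and 4.66 CPM in the NFAT5 KO libraries. The groups did not overlap, and 678_3 was the highest NFAT5 KO library (log2 fold change -1.93 ± 0.30 (SE), edgeR adjusted p = 0.00194).

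Cdc45 and the 4 GINS subunits join MCM2-7 to form the active helicase, and 3 of these 5 genes were lower. Cdc45 (ENSMUSG00000000028, chr16:18780447-18811987, minus strand) stood at 76.4, 55.9, 57.9, 72.8 and 55.04 CPM in the WT libraries and at 29.2, 19.1, 14.9, 9.79 and 16.1 CPM in the NFAT5 KO libraries. NFAT5 KO 678_3 was highest and 679_2 lowest in a group that lay wholly below WT, a 3.57-fold difference (log2 fold change -1.84 ± 0.24 (SE), edgeR adjusted p = 0.000773). Gins4 (ENSMUSG00000031546, chr8:23226616-23237659, minus strand) stood at 55.3, 51.95, 51.2, 69.6 and 56.8 CPM in the WT libraries and at 60.4, 53.99, 40.6, 39.8 and 36.2 CPM in the NFAT5 KO libraries. NFAT5 KO libraries 678_3 and 678_5 lay within the WT range while the other 3 lay below it, and the gene did not pass (log2 fold change -0.302 ± 0.15 (SE), edgeR adjusted p = 0.268). Gins1 and Gins2 had log2 fold changes of -2.04 ± 0.43 and -1.49 ± 0.24 (SE), with edgeR adjusted p-values of 0.0105 and 0.00234. Gins3 was at -0.91 ± 0.34 with an edgeR adjusted p of 0.124, and it passed without NFAT5 KO library 678_5. The ratio of Gins2 to Gins3 differed between genotypes by -0.63 (exact permutation p = 0.0952, adjusted over the 17 pairs 0.147), which did not pass. Of the Gins2 signal, 81.2% of TPM in WT libraries was assigned to a transcript annotated as a retained intron and 11.5% to the protein-coding one.

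DDK, the kinase that triggers origin firing by phosphorylating MCM proteins, showed a lower catalytic subunit. Cdc7 (ENSMUSG00000029283, chr5:106964322-106984432, plus strand), the kinase, stood at 19.99, 21.6, 29.6, 28.99 and 21.6 CPM in the WT libraries and at 9.49, 10.1, 13.2, 13.7 and 10.4 CPM in the NFAT5 KO libraries. All NFAT5 KO libraries were below all WT libraries (log2 fold change -1.100 ± 0.18 (SE), edgeR adjusted p = 0.00229). Dbf4 (ENSMUSG00000002297, chr5:8396973-8422716, minus strand), its activating subunit, stood at 58.1, 53.3, 47.8, 63.1 and 39.8 CPM in the WT libraries and at 39.4, 33.2, 30.6, 46.4 and 39.5 CPM in the NFAT5 KO libraries. WT 679_5 lay inside the NFAT5 KO range and NFAT5 KO 679_2 inside the WT range, and the gene did not pass (log2 fold change -0.47 ± 0.15 (SE), edgeR adjusted p = 0.0747). It passed without WT library 679_5. The ratio of Dbf4 to Cdc7 was higher in NFAT5 KO libraries, by 0.62 (exact permutation p = 0.0238, adjusted over the 17 pairs 0.045).

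All 4 genes of polymerase alpha-primase, which makes the RNA-DNA primers, were lower, with a median of -1.12. Prim1 (ENSMUSG00000025395, chr10:128015168-128030037, plus strand), the catalytic primase subunit, stood at 71.2, 47.2, 52.9, 79.5 and 58.3 CPM in the WT libraries and at 39.4, 25.2, 25.3, 29.3 and 25.5 CPM in the NFAT5 KO libraries. The other NFAT5 KO libraries lay near each other, 678_3 stood above, and the groups did not overlap (log2 fold change -1.095 ± 0.17 (SE), edgeR adjusted p = 0.00215). Pola1 (ENSMUSG00000006678, chrX:93304767-93632155, minus strand), the polymerase subunit, stood at 102, 46.7, 84.4, 39.4 and 69.1 CPM in the WT libraries and at 39.4, 17.6, 29.8, 34.7 and 32.5 CPM in the NFAT5 KO libraries. WT was spread over a wide range, and its lowest library, 679_4, lay next to the highest NFAT5 KO library, 678_3, at 39.38 and 39.36 CPM (log2 fold change -1.15 ± 0.27 (SE), edgeR adjusted p = 0.0189). Without WT library 678_2 Pola1 did not pass. Pola2 and Prim2 had log2 fold changes of -0.68 ± 0.13 and -1.33 ± 0.22 (SE, edgeR adjusted p = 0.00566 and 0.00267). Neither the ratio of Pola1 to Pola2, with a difference of -0.42 (exact permutation p = 0.23, adjusted over the 17 pairs 0.301), nor that of Prim1 to Prim2, with 0.19 (exact permutation p = 0.206, adjusted over the 17 pairs 0.292), passed.

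In polymerase delta, which extends Okazaki fragments, 2 of 3 subunits were lower and 0 at least 2-fold, with a median of -0.46. Pold1 (ENSMUSG00000038644, chr7:44532746-44548849, minus strand), the catalytic subunit, stood at 243, 185, 229, 166 and 218 CPM in the WT libraries and at 138, 91.1, 83.1, 108 and 104 CPM in the NFAT5 KO libraries. The groups did not overlap, and WT 679_4 was the lowest WT library (log2 fold change -0.99 ± 0.14 (SE), edgeR adjusted p = 0.00132). Pold3 (ENSMUSG00000030726, chr7:100082111-100121565, minus strand), an accessory subunit, stood at 69.5, 62.5, 59.4, 78.1 and 76.3 CPM in the WT libraries and at 62.4, 60.1, 52.1, 57.1 and 45.4 CPM in the NFAT5 KO libraries. NFAT5 KO libraries 678_3 and 678_5 lay inside the WT range (log2 fold change -0.32 ± 0.12 (SE), edgeR adjusted p = 0.119). Pold2 was at -0.46 ± 0.11 (SE, edgeR adjusted p = 0.0191). The ratio of Pold1 to Pold3 was lower in NFAT5 KO libraries, by -0.68 (exact permutation p = 0.0238, adjusted over the 17 pairs 0.045).

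In polymerase epsilon, the enzyme of the leading strand, 1 of 2 subunits passed. Pole2 (ENSMUSG00000020974, chr12:69201773-69228195, minus strand), the second subunit, stood at 13.2, 16.8, 19.9, 19.1 and 15.8 CPM in the WT libraries and at 9.62, 5.201, 6.86, 7.88 and 4.14 CPM in the NFAT5 KO libraries. The groups did not overlap (log2 fold change -1.33 ± 0.24 (SE), edgeR adjusted p = 0.00417). Pole (ENSMUSG00000007080, chr5:110286306-110337474, plus strand), the catalytic subunit, stood at 88.9, 66.8, 75.2, 24.6 and 93.4 CPM in the WT libraries and at 41.7, 8.900, 11.5, 20.7 and 40.8 CPM in the NFAT5 KO libraries. WT library 679_4 lay far below the other WT libraries and inside the NFAT5 KO range, and the NFAT5 KO libraries were themselves widely spread (log2 fold change -1.496 ± 0.45 (SE), edgeR adjusted p = 0.0571). Without WT 679_4, and also without NFAT5 KO 678_3 or 679_6, Pole passed. The ratio of Pole2 to Pole did not pass, with a difference of 0.26 (exact permutation p = 0.659, adjusted over the 17 pairs 0.659).

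PCNA, the clamp that holds polymerases on DNA, and the 5 subunits of its loader RFC were all lower, with a median of -1.02. Rfc4 (ENSMUSG00000022881, chr16:23113943-23127737, minus strand) stood at 77.05, 70.3, 56.5, 94.3 and 70.6 CPM in the WT libraries and at 38.4, 19.4, 20.4, 22.4 and 26.96 CPM in the NFAT5 KO libraries. NFAT5 KO 678_3 was the highest of a group that lay wholly below WT (log2 fold change -1.53 ± 0.20 (SE), edgeR adjusted p = 0.000666). Rfc1 (ENSMUSG00000029191, chr5:65261850-65335670, minus strand), the large loader subunit, stood at 93.2, 79.03, 87.6, 98.3 and 79.8 CPM in the WT libraries and at 53.7, 38.7, 59.8, 67.95 and 63.3 CPM in the NFAT5 KO libraries. The difference was smaller, and NFAT5 KO 678_5 stood apart below the others (log2 fold change -0.63 ± 0.14 (SE), edgeR adjusted p = 0.0155). Pcna itself was at -0.85 ± 0.16 (SE), and Rfc2, Rfc3 and Rfc5 at -0.796 ± 0.16, -1.49 ± 0.21 and -1.18 ± 0.23, with edgeR adjusted p-values of 0.00653, 0.00878, 0.00121 and 0.00638. The ratio of Rfc4 to Rfc1 was lower in NFAT5 KO libraries, by -0.91 (exact permutation p = 0.0159, adjusted over the 17 pairs 0.0385). Protein-coding transcripts held 4.797% of the TPM of Rfc2, 44.6% of Rfc1, 48.1% of Rfc5, 73.5% of Rfc4 and 78.6% of Rfc3 in WT libraries, so the share assigned to transcripts annotated as non-coding differed between loader subunits.

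RPA, the trimer that coats exposed single strands, had 2 of 3 subunits lower. Rpa2 (ENSMUSG00000028884, chr4:132768332-132778752, plus strand) stood at 146, 112, 138, 162 and 151 CPM in the WT libraries and at 86.4, 54.7, 66.6, 76.8 and 64.4 CPM in the NFAT5 KO libraries. The groups were clearly apart (log2 fold change -1.02 ± 0.13 (SE), edgeR adjusted p = 0.000682). Rpa3 (ENSMUSG00000012483, chr6:8255936-8259173, minus strand), the smallest subunit, stood at 39.2, 22.3, 24.3, 38.1 and 23.7 CPM in the WT libraries and at 22.2, 12.7, 22.6, 17.6 and 19.7 CPM in the NFAT5 KO libraries. NFAT5 KO library 678_6 lay inside the WT range and 678_3 just below it, and the gene did not pass (log2 fold change -0.64 ± 0.21 (SE), edgeR adjusted p = 0.0866). Rpa1, the large subunit, was at -0.65 ± 0.09 (SE, edgeR adjusted p = 0.000921). The ratio of Rpa2 to Rpa1 was lower by -0.38 (exact permutation p = 0.00794, adjusted over the 17 pairs 0.0385), the smallest p that the arrangements allow.

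Both enzymes that finish Okazaki fragments were lower. Fen1 (ENSMUSG00000024742, chr19:10199132-10204169, minus strand), the flap nuclease, stood at 190.0, 165, 194, 191 and 167 CPM in the WT libraries and at 122, 94.7, 79.6, 107 and 106 CPM in the NFAT5 KO libraries. The WT libraries were close together and lay above all NFAT5 KO libraries (log2 fold change -0.83 ± 0.11 (SE), edgeR adjusted p = 0.000817). Lig1 (ENSMUSG00000056394, chr7:13277283-13311433, plus strand), the ligase that seals the fragments, stood at 156, 98.1, 130.3, 152 and 118 CPM in the WT libraries and at 73.2, 24.1, 33.7, 29.8 and 32.6 CPM in the NFAT5 KO libraries. NFAT5 KO 678_3 stood high above the other 4 of its group but below WT (log2 fold change -1.76 ± 0.27 (SE), edgeR adjusted p = 0.00167). Lig1 fell more than Fen1, with a log2 difference in their ratio of -1.01 (exact permutation p = 0.0159, adjusted over the 17 pairs 0.0385).

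All 4 fork protection genes were at least 2-fold lower. Tipin (ENSMUSG00000032397, chr9:64281581-64305424, plus strand), which forms a complex with Timeless that travels with the fork, stood at 119, 84.4, 91.8, 118 and 100.5 CPM in the WT libraries and at 53.7, 34.6, 48.6, 47.1 and 52.2 CPM in the NFAT5 KO libraries. No library crossed between the groups (log2 fold change -1.12 ± 0.14 (SE), edgeR adjusted p = 0.000558). Clspn (ENSMUSG00000042489, chr4:126556935-126593903, plus strand), or claspin, an adaptor of the replication checkpoint, stood at 25.4, 12.5, 15.4, 17.5 and 12.7 CPM in the WT libraries and at 5.704, 4.17, 0.314, 2.02 and 2.04 CPM in the NFAT5 KO libraries. It had the largest estimated change of the 51 genes, the groups did not overlap, and NFAT5 KO 678_6 rested on 7 counts (log2 fold change -2.55 ± 0.52 (SE), edgeR adjusted p = 0.00927). Timeless and Wdhd1, which links the helicase to polymerase alpha, were at -1.28 ± 0.21 and -1.37 ± 0.22 (SE, edgeR adjusted p = 0.00244 and 0.00232). Tipin and Timeless were not distinguished, with a difference in ratio of 0.21 (exact permutation p = 0.341, adjusted over the 17 pairs 0.414).

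The 3 histone chaperones of replication-coupled chromatin assembly were lower, with the second lowest median of the 14 roles, -2.04. Asf1b (ENSMUSG00000005470, chr8:83955507-83970197, plus strand), which passes new histones to CAF-1, stood at 138, 69.8, 90.9, 142 and 77.1 CPM in the WT libraries and at 20.7, 24.6, 17.2, 18.6 and 23.6 CPM in the NFAT5 KO libraries. The NFAT5 KO libraries lay within a narrow band far below WT, a 4.94-fold difference (log2 fold change -2.305 ± 0.21 (SE), edgeR adjusted p = 0.000117). Chaf1b (ENSMUSG00000022945, chr16:93883901-93906115, plus strand), a CAF-1 subunit, stood at 89.6, 54.8, 68.2, 105 and 55.3 CPM in the WT libraries and at 42.5, 31.5, 27.1, 36.3 and 35.5 CPM in the NFAT5 KO libraries. The groups did not overlap, and WT was widely spread (log2 fold change -1.11 ± 0.19 (SE), edgeR adjusted p = 0.00372). Chaf1a, the large CAF-1 subunit, was at -2.04 ± 0.33 (SE, edgeR adjusted p = 0.00238). The ratio of Chaf1b to Chaf1a was higher in NFAT5 KO libraries, by 1.12 (exact permutation p = 0.0159, adjusted over the 17 pairs 0.0385). Across all 17 ratios, 9 passed at an adjusted p of 0.05, in ORC, licensing, DDK, polymerase delta, RFC, RPA, Okazaki fragment enzymes and CAF-1. Each of these 9 was lost in most fits that left out 1 library. Pairs were set by complex or function. Some hold the members with the smallest and largest p of their role, as Rfc4 with Rfc1 and Pold1 with Pold3. The count of 9 therefore describes these pairs alone.

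Exons of several members overlap those of an expressed gene on the other strand, and without a stated strand setting reads there cannot be told apart. The neighbours with the most counts relative to the member were Vps35 for Orc6, Ufd1 for Cdc45, Eif4a2 for Rfc4, Ubxn6 for Chaf1a, Wsb2 for Rfc5, Cops6 for Mcm7, Nif3l1 for Orc2 and Tmem258 for Fen1. Pole2 shares exons on its own strand with Gm49384. With only protein-coding transcripts summed, 42 members were lower, all 41 among them, against 652 of the 10812 genes tested there. The neighbours named and Gm49384 are themselves annotated as protein-coding, so this sum cannot resolve the overlaps.

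Level and change were only loosely related among the 51 genes. Level was the log2 of the mean TPM over both genotypes, so NFAT5 KO values enter both level and change. Across genes, which are not independent replicates and share libraries, the Pearson r of level with log2 fold change was 0.404. The Spearman rho was 0.366. The 26 genes of lower TPM had a median log2 fold change of -1.302 with 20 lower, and the 25 of higher TPM had a median of -1.02 with 21 lower.

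Other genes of the pathway, a list of 45, held 44 that were tested, with a median of -0.64. EdgeR called 23 of them lower and 0 higher, against 5.63% and 3.38% of all genes tested. At an unadjusted p under 0.05, 28 were lower and 1 was higher, against 1588 and 1453 of all 13081 genes tested. The DESeq2 Wald test and limma-voom also called 0 higher. Gmnc was at 0 in every library. Among origin licensing and firing factors, 5 of 11 tested were lower. Dtl, the substrate receptor that marks Cdt1 for destruction, fell from 95.7 ± 22.3 to 26.2 ± 9.57 CPM (SD, n = 5 each; log2 fold change -1.87 ± 0.24 (SE), edgeR adjusted p = 0.000637). Ticrr, which brings Cdc45 to origins, was at -2.16 ± 0.42 (SE, edgeR adjusted p = 0.00673), and Donson at 0.07 ± 0.10 (adjusted p = 0.744). All 4 S phase cyclin and kinase genes were lower. Ccna2, cyclin A2, fell from 165 ± 57.8 to 18.4 ± 11.2 CPM, with no overlap (log2 fold change -3.16 ± 0.37 (SE), edgeR adjusted p = 0.000377). The cyclin E genes Ccne1 and Ccne2 were at -0.94 ± 0.18 and -1.47 ± 0.32 (SE).

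Among polymerase and clamp accessory genes 4 of 9 were lower, where 5.63% of all genes tested were. Pclaf, a PCNA-binding factor, fell from 220.0 ± 67.6 to 28.3 ± 18.96 CPM on average, with no overlap (log2 fold change -2.96 ± 0.38 (SE), edgeR adjusted p = 0.000622), and Chtf18, of an alternative clamp loader, was at -1.53 ± 0.19 (SE, edgeR adjusted p = 0.000545). Primpol was at -0.13 ± 0.19 and did not pass. Of 10 nucleases, helicases and topoisomerases 4 were lower. Top2a, the topoisomerase of dividing cells, fell from 291 ± 70.4 to 60.8 ± 25.6 CPM on average, with no overlap (log2 fold change -2.26 ± 0.26 (SE), edgeR adjusted p = 0.000385). Rnaseh2b was at -1.05 ± 0.14 (SE, edgeR adjusted p = 0.000879), and Rnaseh1 at 0.103 ± 0.17 did not pass. Of 10 genes for chromatin behind the fork 6 were lower. Uhrf1, which guides maintenance DNA methylation, fell from 282 ± 55.1 to 87.7 ± 31.5 CPM on average, with no overlap (log2 fold change -1.68 ± 0.22 (SE), edgeR adjusted p = 0.000666). Slbp, the histone mRNA binding protein, was at -0.67 ± 0.12 (SE, edgeR adjusted p = 0.00522), while Ssrp1, of the chaperone FACT, was at -0.06 ± 0.07 and did not pass.

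The libraries kept much the same order over the members. NFAT5 KO library 678_3 was the highest of its group for 36 of the 51 genes and 678_5 the lowest for 35. In WT, 678_4 was the lowest for 31, while 679_4 was the highest for 27 and 678_2 for 18. In all 25 pairs of 1 WT and 1 NFAT5 KO library, between 47 and 51 of the 51 genes were higher in the WT library. Of the mitosis list, 32 of 34 genes were lower, against 5.63% of all genes tested, with a median of -2.66. Summed, mitosis genes stood at 2104 to 3400 CPM across WT and 509.6 to 890.7 CPM across NFAT5 KO libraries, and 678_3 was again the highest NFAT5 KO library.

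**Figure D4:**
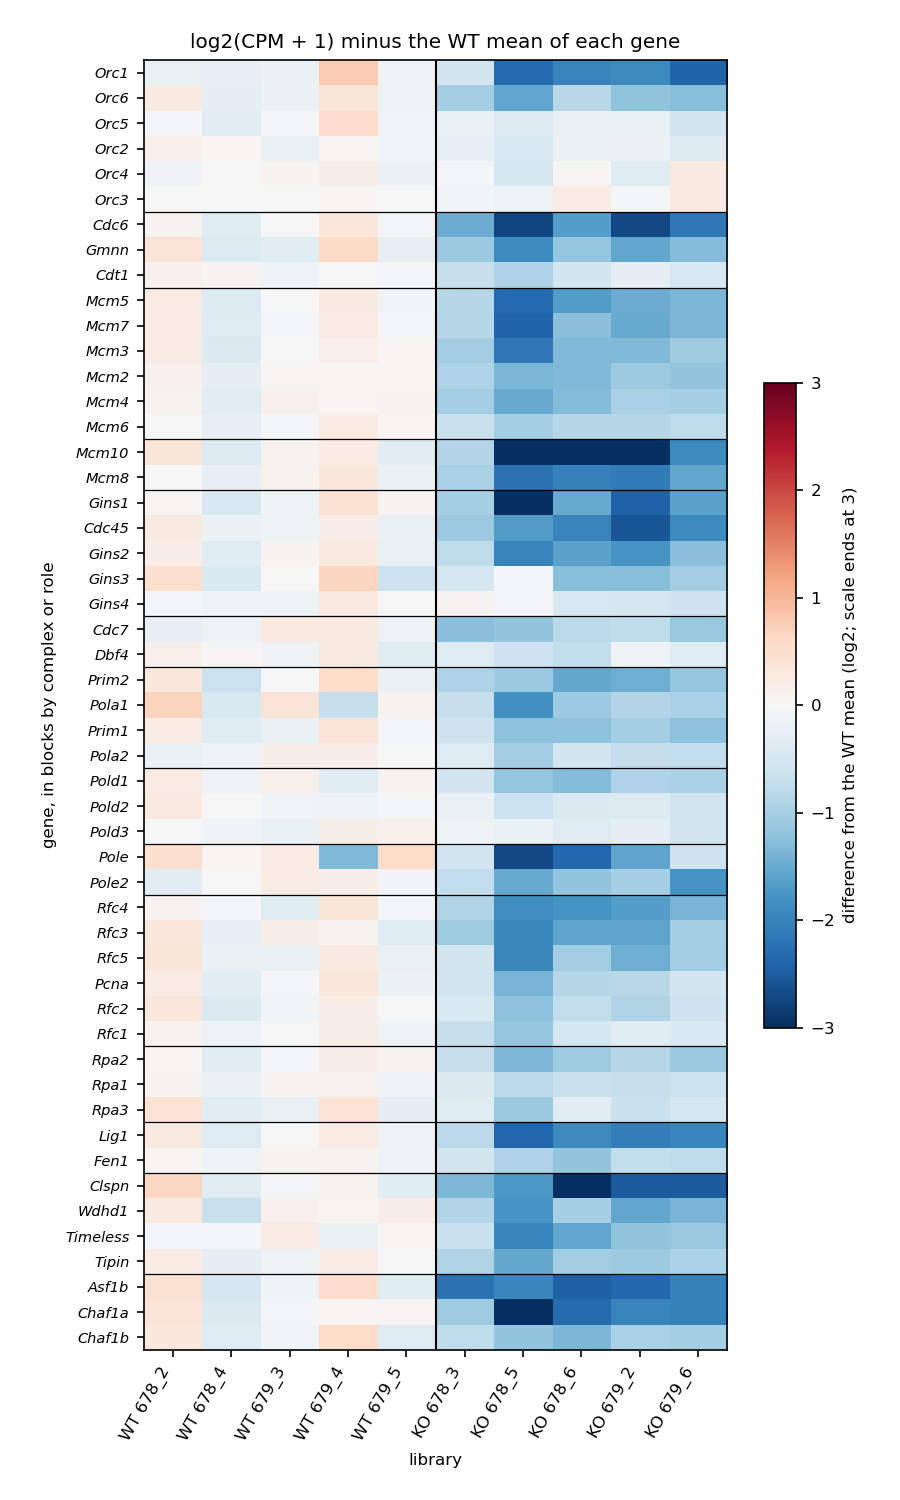
Log2(CPM + 1) of each replication gene (rows, in blocks by role) in each library (columns) minus the WT mean of that gene; blue is lower and red higher. Blue fills most of the NFAT5 KO columns, palest in 678_3 and deepest in 678_5, with pale rows for Orc2, Orc3, Orc4, Orc5, Gins4 and Pold3.

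Macrophage and monocyte markers stood lower in NFAT5 KO libraries by their mean level. Of the 12, 9 were tested and 1 of these was called lower (Adgre1). None was at 0 in all libraries, and Itgam stood at 11.09 ± 5.73 CPM over WT and 13.3 ± 4.55 CPM over NFAT5 KO libraries. The highest was Lyz2, at 48.5 ± 18.5 CPM over the WT and 15.2 ± 14.04 CPM over the NFAT5 KO libraries (SD, n = 5). Their mean log2 CPM ran from 0.48 to 2.03 in WT and from -1.64 to 1.002 in NFAT5 KO libraries. In 24 of the 25 pairs of 1 WT and 1 NFAT5 KO library the WT library had the higher mean. Marker level and genotype varied together over the 10 libraries (Pearson r = -0.773 with NFAT5 KO coded as 1 and WT as 0, given as a description), so the covariate fit separates them only in part. WT library 678_4, at 0.48, lay below NFAT5 KO library 679_6, at 1.002, in the only pair of the opposite order. Their replication gene sums were 5442 and 3394 CPM. WT 678_4 was the lowest WT library in both measures. NFAT5 KO 678_5, at -1.64 and 2514 CPM, was the lowest of its group in both. In rising order of marker mean, NFAT5 KO libraries 678_5, 678_6, 679_2, 678_3 and 679_6 had sums of 2514, 3106, 3212, 3992 and 3394 CPM. WT libraries 678_4, 678_2, 679_4, 679_5 and 679_3, ordered likewise, had sums of 5442, 7449, 7459, 6463 and 6572 CPM. How marker level and replication genes relate within a genotype was not tested. With the macrophage marker mean as a covariate, edgeR called 0 members lower, and of all 13081 genes tested it called 7 lower and 0 higher. At an unadjusted p under 0.05, 35 members and 5.01% of all genes tested were lower. Of the members 49 were negative, with a median of -0.795 and a lowest edgeR adjusted p of 0.0588. Melanoma markers summed to 5.93 to 28.7 CPM across WT and 2.6 to 17.2 CPM across NFAT5 KO libraries. Sox10 and Slc45a2 were at 0 in every library. With the mean of the melanoma markers as a covariate, 34 members were lower, against 3.16% of all genes tested.

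**Figure D5:**
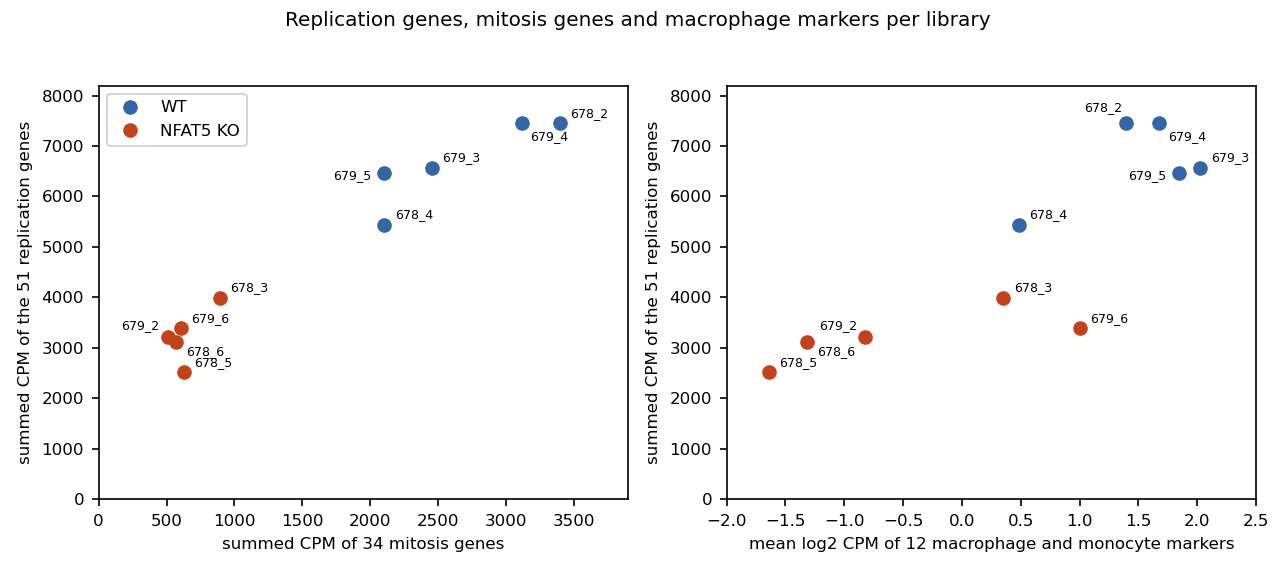
Summed CPM of the 51 replication genes (y axes) in each library against the summed CPM of 34 mitosis genes (left) and the mean log2 CPM of 12 macrophage and monocyte markers (right). WT libraries lie between 5442 and 7459 CPM and NFAT5 KO libraries between 2514 and 3992 CPM, and on the right WT 678_4 lies to the left of NFAT5 KO 679_6.

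Within each label prefix the direction was that of all libraries, and the calls were fewer. Prefix 679, with 3 WT and 2 NFAT5 KO libraries, gave 28 members lower, against 1.82% of all genes tested, 50 negative and a median of -1.204. Prefix 678, with 2 WT and 3 NFAT5 KO libraries, gave 0 members lower by edgeR, and 0 of all 13747 genes tested there were called lower or higher. At an unadjusted p under 0.05, 41 members and 6.20% of those genes were lower. Of the members 50 were negative, with a median of -1.12 and a lowest edgeR adjusted p of 0.0872. The change itself was tested for a difference between prefixes, and 0 of 51 members passed, with 1 at an unadjusted p under 0.05 (edgeR interaction term). Of all genes tested 0 passed either, with 2.88% at an unadjusted p under 0.05, so this test called nothing anywhere and says nothing about stability. The DESeq2 Wald test on all libraries called 45 members lower, against 1172 of the 22614 genes tested there. By limma-voom it was 41 members, against 826 of 13081 genes.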

How the data were processed

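The 5 WT and 5 NFAT5 KO libraries hold RNA of tumour-derived P14 CD8 T cells. Per the file headers, the authors deposited an estimated count, a TPM value and lengths for 140919 transcripts in each library. They used Salmon 0.14.1, and the builds named are mm10 and GRCm38.p6, per the submitters' processing notes. Annotation release, trimming and strand setting: not given in the sources used here. Because Salmon divides ambiguous reads by a model, isoforms and overlapping genes are less certain.

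Transcripts were matched to GENCODE M21 (99.38% matched), and each gene's estimated counts were added up and rounded. The 13081 genes kept by filterByExpr were scaled by TMM and entered the robust quasi-likelihood test of edgeR 4.0.16 (R 4.3.3), NFAT5 KO minus WT without covariate, with Benjamini-Hochberg adjustment over all genes and a threshold of 0.05. SE was computed as |log2 fold change| / sqrt(F). CPM are TMM-scaled, and the prior count for log2 CPM was 2. The authors' deposited TPM, summed per gene, served only for levels between genes and isoform shares. Ratios within a complex used two-sided exact permutation tests over all arrangements, adjusted over 17 pairs. No library pair agreed within sampling noise (lowest chi-square per degree of freedom 27.88 over 45 pairs). The biological coefficient of variation was 35.7%. The scripts were tested on simulated data.

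Values are given in every library for all MCM2-7 genes and, in each other role, for the member with the smallest and the largest p. Of the other replication genes, the 2 with the smallest and the 1 with the largest p of each role are named. Orc1 was added after its values were seen. The members and lists were chosen with earlier results of these data known. Alternatives were other size factors, low-count filters, DESeq2 1.42.0, limma 3.58.1, protein-coding transcripts, a length offset, the label prefix as a block or alone, marker covariates, and leaving out each library. Deviations from the genotype mean had a mean r of 0.0088 between same-prefix libraries of different genotype. Between libraries that differed in prefix and genotype it was -0.008. The prefix was therefore not treated as pairing.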

Additional observations from a re-analysis of the deposited data

Results flagged for a closer look

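In groups of 5 libraries, a value was singled out where its gap to the nearest library took more than 0.71 of the group's range of CPM (Dixon's criterion). This held in 12 of 132 groups (51 replication genes and 15 others, 2 genotypes each), and chance alone singles out about 1 group in 20.

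WT library 679_4 stood high for Orc1 at 30.1 CPM (next 16.1), for Orc3 at 104 CPM (next 101, a small gap in a narrow group) and for Orc5 at 49.2 CPM (next 32.6). NFAT5 KO library 678_3 stood high for Orc1 at 11.5 CPM (next 3.90), for Prim1 at 39.4 CPM (next 29.3) and for Lig1 at 73.2 CPM (next 33.7). WT library 678_4 stood low for Mcm2 at 352 CPM (next 441), for Mcm4 at 310 CPM (next 407) and for Wdhd1 at 27.6 CPM (next 46.5), and high for Ssrp1 at 512 CPM (next 473). WT library 678_2 stood high for Pold2 at 174 CPM (next 143), and NFAT5 KO library 678_5 stood high for Donson at 91.2 CPM (next 73.7). Orc1, Prim1, Lig1, Mcm2, Mcm4, Wdhd1 and Pold2 were lower in NFAT5 KO libraries in each fit that left out 1 library.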

How the results depend on the processing

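The count of 41 lower members was 40 to 45 under other scalings, filters, tests, transcript sets and the length offset, and 39 to 42 with 1 library left out. Only label prefix 678 alone (0, with 41 at an unadjusted p under 0.05) and the macrophage covariate (0, with 35) moved it by more than 1.5 times, both by edgeR; prefix 679 alone gave 28 and the melanoma covariate 34. The count of all genes called, 1179, became 2008 with the DESeq2 Wald test, 0 and 325 with prefix 678 and 679 alone (1449 and 2242 at an unadjusted p under 0.05), 7 with the macrophage and 580 with the melanoma covariate, and 696 to 1276 with 1 library left out (696 without WT 678_2). Other replication genes lower, 23, became 0 and 7 with prefix 678 and 679 alone (20 and 25 unadjusted), 0 with the macrophage (15 unadjusted) and 13 with the melanoma covariate. The prefix fits hold fewer libraries; the cause of the other shifts was not tested. The prefix as a replicate block gave 41 lower members, the same 41, and 976 genes in all.

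Signs changed only in small differences that were not called. These were Orc3 (-0.022 to 0.088 with 1 library left out), Orc4 (0.198 with the macrophage covariate), Donson (-0.032 to 0.094 with 1 library left out, -0.058 with prefix 679 alone, -0.084 with the macrophage covariate), Primpol (0.303 with prefix 679 alone) and Rnaseh1 (-0.031 to 0.175 with 1 library left out, -0.176 with prefix 679 alone).

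With 1 library left out, each of the 9 ratios that passed was lost in most such fits. Orc1 to Orc2 ranged from -2.13 to -1.59, Orc6 to Orc2 from -1.001 to -0.845, and Cdt1 to Gmnn from 0.72 to 0.99. Dbf4 to Cdc7 ranged from 0.52 to 0.76, Pold1 to Pold3 from -0.80 to -0.59, and Rfc4 to Rfc1 from -1.08 to -0.80. Rpa2 to Rpa1 ranged from -0.43 to -0.32, Lig1 to Fen1 from -1.199 to -0.891, and Chaf1b to Chaf1a from 0.84 to 1.33. Cdc6 to Orc1 ranged from -0.346 to 0.031, and Mcm10 to Mcm8 from -1.40 to -0.83. On log2 TPM, Cdt1 to Gmnn (0.74) no longer passed, while Mcm10 to Mcm8 (-0.95) and Gins2 to Gins3 (-0.90) did. No ratio was tested with the prefix block.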
